A study of Ovis aries with 3 samples.

Results

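The transcripts described here are 5 sheep transcripts that the study listed under fatty acid beta-oxidation or fatty acid degradation and whose genes could be named: ACAA1 (XM_004018227.2), HSD17B4 (XM_004008685.2), ABCD3 (XM_012176707.1), CROT (XM_012176525.1) and CPT1A (NM_001009414.1). They were chosen by identifier, and all their exon rows were taken, which gave 5 of the 83089 transcripts with reads and 94 of the 903107 exon rows. The study compared mucosal epithelium from 3 gut regions of small-tailed Han sheep, duodenum, cecum and colon, by RNA sequencing. Each region is represented by 1 pooled library from 3 ewes aged 11 months, kept without any experimental treatment named in the labels, so the regions have no replicates and the differences below have no replicate check. The Texel libraries of the study were not analysed here. A tested transcript had an RPKM, which is the read number scaled to exon length and library size, of at least 1 in at least 1 library, and all 5 transcripts passed this filter among 58311 that did.

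Beta-oxidation shortens a fatty acyl-CoA from its carboxyl end and releases acetyl-CoA at each round. Mitochondria oxidise most long-chain fatty acids, and the carnitine palmitoyltransferase CPT1A on their outer membrane controls the entry of these acids. Peroxisomes shorten very long-chain and branched-chain fatty acids with enzymes of their own, produce hydrogen peroxide on the way, and pass the shortened chains on to the mitochondria. The duodenum is the region that takes up dietary long-chain fat, whereas the ruminant cecum and colon hold a fermenting microbiota that releases short-chain fatty acids.

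The 4 peroxisomal transcripts were lower in both large-intestine libraries than in the duodenum library, and CPT1A was higher in both. Summed over ACAA1, HSD17B4, ABCD3 and CROT, the level was 543 RPKM in the duodenum, 123 in cecum and 124 in colon, while CPT1A stood at 32.2, 73.7 and 76.6 RPKM. The summed peroxisomal level was therefore 16.9 times that of CPT1A in the duodenum, 1.68 times in the cecum and 1.61 times in the colon. CPT1A was the fourth in level among the 5 in the duodenum and the highest in the cecum and the colon, as the plot of transcript levels by library shows.

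**Figure D1:**
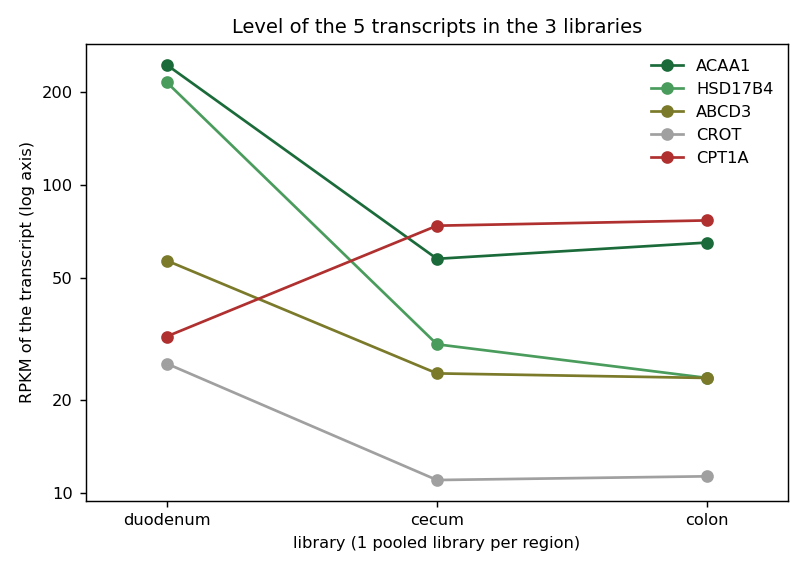
RPKM of each of the 5 transcripts (log axis) in the duodenum, cecum and colon libraries, 1 point per library joined by a line per gene. The lines of ACAA1, HSD17B4, ABCD3 and CROT go down from the duodenum, and the line of CPT1A goes up from 32.2 RPKM to 73.7 in cecum and 76.6 in colon.

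A difference was called when the Audic-Claverie test on the reads gave a false discovery rate below 0.001 and the RPKM differed at least 2-fold, the thresholds that the study used. Of the 5 transcripts, 4 were called lower in the cecum than in the duodenum and 1 higher. Over all tested transcripts, 6.23% were called lower in the cecum and 11.5% higher. The colon gave the same calls, 4 lower than the duodenum and 1 higher, beside 6.88% of all tested transcripts lower in the colon and 9.35% higher. None of the 5 was called between the cecum and the colon, where 2.83% of the tested transcripts were called higher in cecum and 2.87% lower. The study drew its lists from transcripts that it had already called different between regions, in samples that include these libraries. For the 5, being called was thus largely fixed in advance, and the shares over all tested transcripts are no comparison for it. The cecum and colon comparisons share the duodenum library and are not independent of each other. These calls compare libraries and not animals. An exact test of edgeR with an assumed coefficient of variation of 0.4 called 0 of the 5 in either comparison, with 2 of 5 at an unadjusted p under 0.05 in each. The value of 0.4 was applied to each library. Each library pools 3 ewes, and the study names the same 3 ewes for all regions. The spread between such pools is not known, so this test does not measure the spread between animals.

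ACAA1, the peroxisomal 3-ketoacyl-CoA thiolase that carries out the last step of the cycle, was the most abundant of the 5 in the duodenum. The level was 245 RPKM in the duodenum, 57.5 in cecum and 65.0 in colon, from 16745, 3580 and 4699 reads. It ranked above 98.8% of the tested transcripts in the duodenum, 93.2% in cecum and 94.6% in colon. The log2 ratio to the duodenum was -2.09 in the cecum (95% interval -2.14 to -2.04) and -1.92 in the colon (-1.96 to -1.87), a 4.26-fold and a 3.77-fold lower level. All intervals are exact (Clopper-Pearson) and cover read sampling only. They are too narrow where a read that spans exons was counted on each of them. ACAA1 has 11 exons with reads and 1344 bases, lies at positions 11518871 to 11543118, and shares no exon with another transcript of the files, which give positions without a chromosome or a genome build.

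HSD17B4, the multifunctional enzyme that hydrates and dehydrogenates peroxisomal acyl-CoAs ahead of the thiolase, differed most of the 5 between the duodenum and the large intestine. Its level was 215 RPKM in the duodenum, 30.4 in cecum and 23.6 in colon, from 30579, 3932 and 3554 reads. The cecum thus held 14.1% and the colon 10.98% of the duodenum level. The log2 ratio was -2.82 in the cecum (-2.87 to -2.78) and -3.19 in the colon (-3.24 to -3.14). HSD17B4 stood slightly below ACAA1 in the duodenum, with a ratio of 0.878 between them, and at 0.528 and 0.364 of ACAA1 in the cecum and colon. The transcript has 24 exons and 2796 bases at positions 31819455 to 31921886.

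ABCD3, a transporter of the peroxisomal membrane that brings acyl-CoAs into the organelle, was at 56.8 RPKM in the duodenum, 24.4 in cecum and 23.6 in colon. CROT, the carnitine octanoyltransferase that prepares medium-chain products for export from the peroxisome, was at 26.3, 11.02 and 11.3 RPKM. In cecum and colon, ABCD3 was at 43.1% and 41.6% of its duodenum level and CROT at 41.9% and 43.1%. The log2 ratios of ABCD3 were -1.22 in the cecum (-1.27 to -1.16) and -1.27 in the colon (-1.32 to -1.21). The log2 ratios of CROT were -1.25 (-1.34 to -1.17) and -1.21 (-1.29 to -1.14). The level of ABCD3 relative to CROT was 2.16 in the duodenum, 2.22 in cecum and 2.08 in colon. ABCD3 has 23 exons at positions 70738432 to 70819031 and CROT has 18 at 32985051 to 33035893.

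CPT1A ran against these 4. It was the lowest of the 5 in the duodenum after CROT, at 32.2 RPKM from 3920 reads, and reached 73.7 RPKM from 8174 reads in the cecum and 76.6 RPKM from 9881 reads in the colon. The log2 ratio to the duodenum was 1.19 in the cecum (1.14 to 1.25) and 1.25 in the colon (1.20 to 1.30), a 2.29-fold and a 2.38-fold higher level. ACAA1 was 7.62 times as abundant as CPT1A in the duodenum, and 0.781 and 0.848 times in the cecum and colon. HSD17B4 changed from 6.68 times CPT1A to 0.412 and 0.308 times. CPT1A has 18 exons and 2396 bases at positions 45449162 to 45488890, and no exon is shared with another transcript.

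The cecum and colon libraries lay close together for all 5. CPT1A differed 1.04-fold, ABCD3 1.03-fold and CROT 1.03-fold, and the intervals of the cecum-over-colon ratio of ABCD3 (log2 -0.01 to 0.11) and CROT (-0.14 to 0.06) reached across 0. HSD17B4 was 1.29-fold higher in the cecum, with a log2 ratio of 0.36 (0.30 to 0.43), and ACAA1 was 1.13-fold higher in the colon, with a log2 ratio of -0.18 (-0.24 to -0.11). These differences exceed read sampling, but no spread between animals is known against which to set them. In the colon, HSD17B4 and ABCD3 had the same level of 23.6 RPKM.

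The exons of each transcript were then compared, since a difference carried by a few exons would not be a difference of the whole transcript. Of the 76 exons of the 4 peroxisomal transcripts, 76 were lower in the cecum and 76 lower in the colon than in the duodenum, with log2 ratios from -4.31 to -0.87 in the cecum and from -5.26 to -0.72 in the colon. Of the 18 exons of CPT1A, all 18 were higher in both large-intestine libraries, with log2 ratios from 0.69 to 1.52 and from 0.86 to 1.61. Exons of 1 transcript come from the same library and are not replicates. Between cecum and colon the exons were mixed, with 43 of the 76 peroxisomal exons and 6 of the 18 CPT1A exons higher in the cecum.

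**Figure D2:**
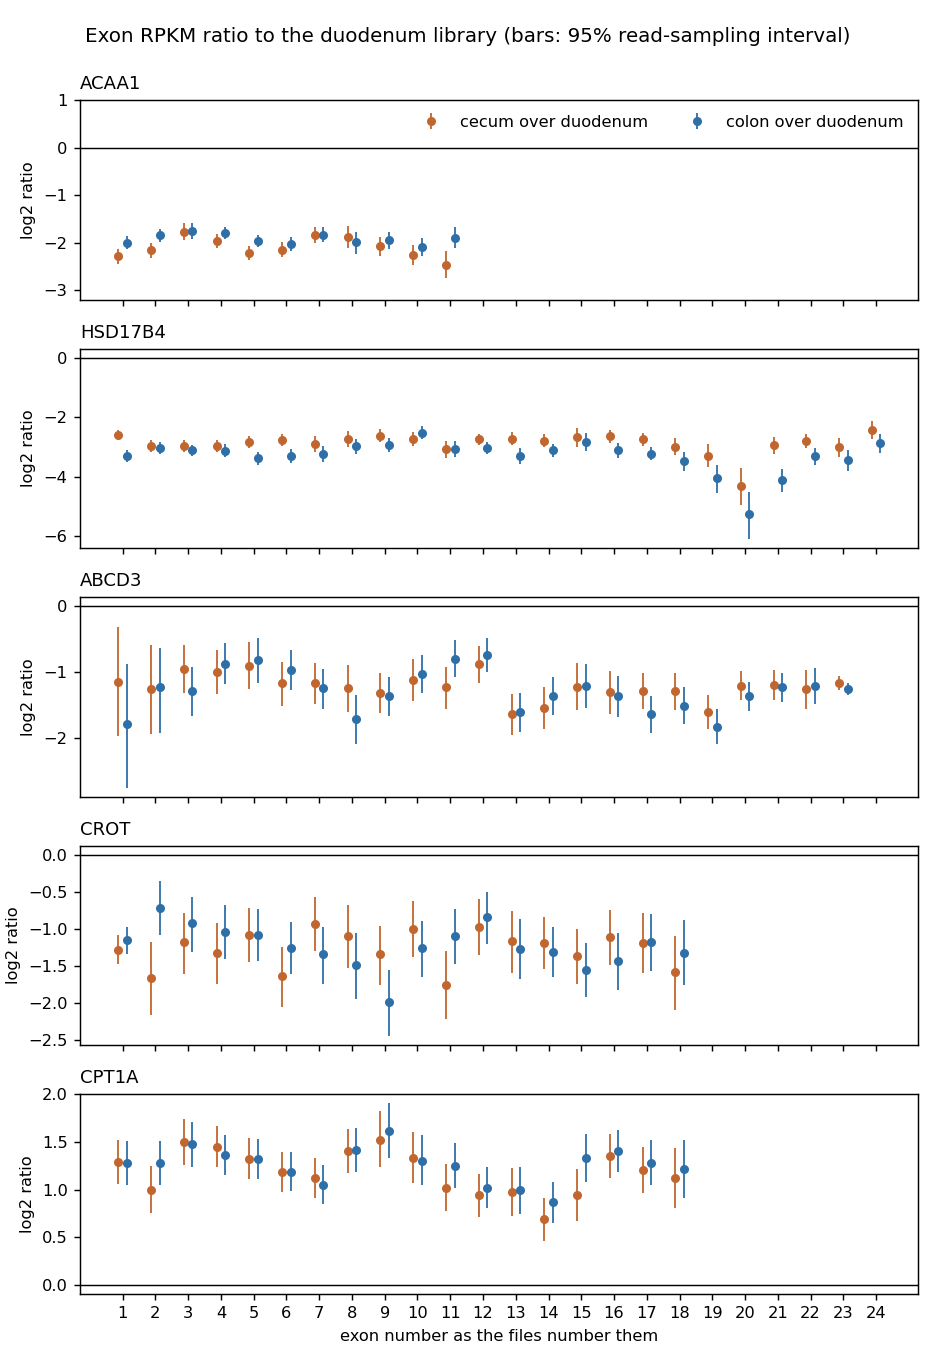
Log2 RPKM ratio of each exon to the duodenum library, for the cecum and the colon, against the exon number, 1 panel per transcript with its own vertical scale. Bars are 95% read-sampling intervals and the black line marks no difference. All points of ACAA1, HSD17B4, ABCD3 and CROT are below 0 and all points of CPT1A are above 0, and HSD17B4 has its lowest colon points at exons 19 to 21 and its lowest cecum points at exons 19 and 20.

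The exon ratios of ACAA1 had the smallest SD of the 5 transcripts in the colon (0.107) and, after ABCD3 (0.193), the next in the cecum (0.215). The log2 ratios of its 11 exons ran from -2.46 to -1.77 in the cecum and from -2.09 to -1.75 in the colon, and every exon was at least 2-fold lower in both. The exons of ACAA1 in the duodenum lay between 138 RPKM (exon 1, 306 bases) and 448 RPKM (exon 6, 82 bases). The highest large-intestine value was 122 RPKM, so no exon of the cecum or colon reached the lowest duodenum exon. For the other 4 transcripts the exon ranges of the libraries overlapped. CROT, for example, had exons from 12.8 to 46.8 RPKM in the duodenum, from 4.27 to 19.1 in the cecum and from 5.09 to 22.7 in the colon.

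In ABCD3 19 of 23 exons were at least 2-fold lower in the cecum and 18 of 23 in the colon. In CROT these numbers were 16 and 15 of 18. Some exon ratios of CROT differed between the large-intestine libraries. Exon 2 had log2 ratios of -1.67 in cecum and -0.72 in colon, exon 11 -1.76 and -1.10, and exon 9 -1.34 and -1.99. These exons were singled out after their values were seen, and had 45.9 to 103 reads in each large-intestine library. The intervals of their cecum-over-colon log2 ratios were -1.48 to -0.43 (exon 2), -1.17 to -0.14 (exon 11) and 0.12 to 1.18 (exon 9). In CPT1A 14 of 18 exons were at least 2-fold higher in the cecum and 16 of 18 in the colon. The smallest CPT1A ratio was that of exon 14, at 37.9 RPKM in the duodenum, 61.1 in cecum and 69.0 in colon. The largest was that of exon 9, at 13.9, 40.0 and 42.6 RPKM.

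Within a transcript the exons kept much of their order between libraries. The rank correlation of exon RPKM between duodenum and colon was 0.982 over the 11 exons of ACAA1, 0.849 over the 18 of CPT1A, 0.82 over the 23 of ABCD3, 0.646 over the 24 of HSD17B4 and 0.536 over the 18 of CROT. These correlations run over exons of the same gene, which share their length in all libraries, and shorter exons tended to have a higher RPKM: the rank correlation of length with duodenum RPKM was -0.835 in CPT1A, -0.801 in CROT, -0.755 in ACAA1, -0.693 in HSD17B4 and -0.193 in ABCD3. Levels of different exons were therefore not read as a difference in splicing. Read coverage was nearly complete. The lowest share of an exon covered in any library was 97.4% in CROT, 97.8% in CPT1A, 96.6% in ACAA1, 92.3% in HSD17B4 and 79.5% in ABCD3, the last in the 39-base exon 1 in the colon.

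Exons 19 to 21 of HSD17B4 had lower colon ratios than any other exon of the transcript, and exons 19 and 20 also had the lowest cecum ratios. They were singled out after their values were seen, so they are described and not tested. These exons of 48, 23 and 61 bases were at 267, 464 and 306 RPKM in the duodenum, at 27.3, 23.3 and 39.8 RPKM in the cecum and at 16.0, 12.1 and 17.5 RPKM in the colon. Exon 20 was 2.15 times the level of the transcript in the duodenum and 0.768 and 0.511 times in the cecum and colon. Summed, the 3 exons had a log2 ratio to the duodenum of -3.30 in cecum and -4.32 in colon, with single exons at -3.29, -4.31 and -2.95 in cecum and at -4.06, -5.26 and -4.13 in colon, from 2142 reads in the duodenum, 198 in cecum and 114 in colon. The other 21 exons had ratios of -2.79 and -3.13, with single exons between -3.08 and -2.44 in the cecum and between -3.49 and -2.52 in the colon. Exon 21 lay within this range in the cecum and outside it in the colon. Without these exons the HSD17B4 difference was thus 6.94-fold in the cecum and 8.75-fold in the colon.

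**Figure D3:**
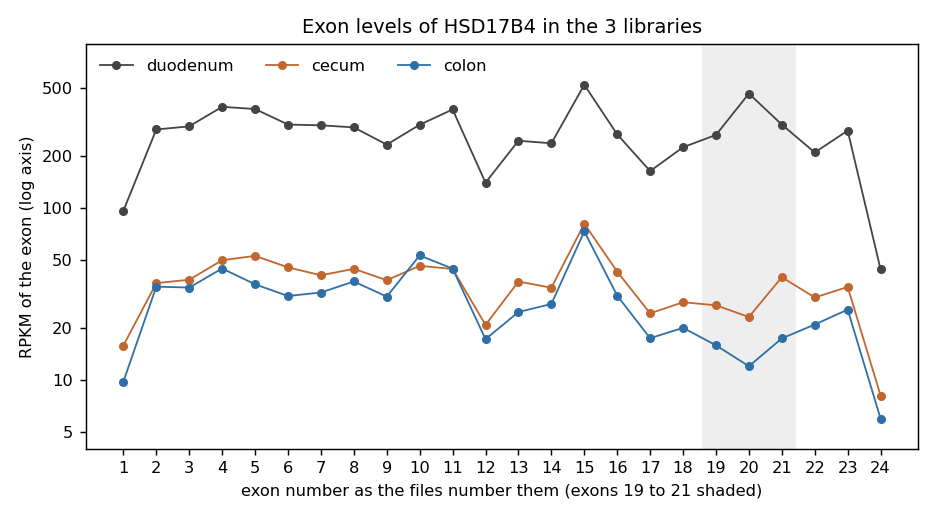
RPKM of the 24 exons of HSD17B4 (log axis) by exon number in the 3 libraries, with exons 19 to 21 shaded. At exon 20 the duodenum line rises to 464 RPKM while the cecum and colon lines are at 23.3 and 12.1 RPKM, and elsewhere the 3 lines run mostly in parallel.

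HSD17B4, ABCD3 and CROT have further annotated transcripts, 2, 4 and 7 in all, that share most exons, and reads on a shared exon are listed for each of them. Of the exons, 22 of 24 in HSD17B4, 22 of 23 in ABCD3 and 17 of 18 in CROT were shared. The second HSD17B4 transcript, XM_012155348.1, holds exons 19 to 21 as well and had nearly the same levels, 215 RPKM in the duodenum, 31.0 in cecum and 23.7 in colon. The 4 transcripts of ABCD3 were 2.32-fold to 2.33-fold lower in the cecum and 2.40-fold to 2.41-fold lower in the colon, and the 7 of CROT 2.36-fold to 2.39-fold and 2.31-fold to 2.32-fold lower. These transcripts cannot be told apart from their shared reads.

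Exons whose start and end only the listed transcript has overlap exons of other transcripts, so they gave little further resolution. The last exon of the listed CROT transcript, exon 18 with 229 bases, was at 12.8 RPKM in the duodenum, 4.27 in cecum and 5.09 in colon, with log2 ratios of -1.58 and -1.33. Another CROT transcript has an exon of 222 bases with the same start and the same reads. The opening exon of the listed ABCD3 transcript was at 22.9, 10.4 and 6.64 RPKM, from 45.4, 18.7 and 13.9 estimated reads, and on this exon alone the cecum difference was no longer called. The HSD17B4 exons with positions of their own, exons 1 and 24, were at 96.6 and 44.1 RPKM in the duodenum, 15.9 and 8.15 in the cecum and 9.82 and 5.99 in the colon. A 90-base stretch of exon 24 that is listed as an exon of XM_012155348.1 carried 159 reads in the cecum, more than the 104 of the 275-base exon that contains it, so the read numbers of overlapping exons are not nested. How they were assigned to transcripts was not tested.

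The lists from which the 5 transcripts come were examined next. The study placed 15 transcripts under beta-oxidation and 14 under degradation, 24 in all, of which 13 are in the files analysed here. ACAA1, HSD17B4, ABCD3 and CROT were listed under beta-oxidation and ACAA1 and CPT1A under degradation, and the other 8 have no gene symbol in the tables used. Of the 13, 11 were called lower and 1 higher in the cecum than in the duodenum, with a median log2 ratio of -1.56 beside 0.06 over all tested transcripts. In the colon 12 were called lower and 1 higher, with a median of -1.55 beside a median of all tested transcripts near 0 (-0.000332). CPT1A was the 1 that was higher in each comparison. Among all tested transcripts, 6.23% were called lower and 11.5% higher in the cecum, and 6.88% lower and 9.35% higher in the colon. The study drew these lists from transcripts that it had called different in samples that include these libraries. Neither the calls nor their direction are therefore independent evidence, and the shares over all tested transcripts are no comparison for them.

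Among the 8 unnamed transcripts the levels at the duodenum ran from 5.06 to 259 RPKM. XM_012181578.1, listed under beta-oxidation, was at 72.7 RPKM in the duodenum, 9.23 in cecum and 7.86 in colon, a 7.88-fold and 9.25-fold difference close to that of HSD17B4. XM_004003079.2, listed under both terms, was at 56.9, 13.7 and 11.3 RPKM. The degradation transcripts XM_012185791.1, XM_012177832.1 and XM_012102932.1 were 2.94-fold, 2.24-fold and 2.08-fold lower in the cecum. XM_004011548.2 was at 72.7, 37.6 and 35.2 RPKM and missed the call in the cecum with a 1.93-fold difference. Large-intestine reads were absent or nearly so for the remaining degradation transcripts. XM_004022834.2, a single exon of 176 bases, had 259 RPKM in the duodenum and 0 reads in both other libraries, at least 704-fold lower in the cecum and at least 819-fold lower in the colon against a floor of 3 reads per library. XM_012179628.1 had 5.06 RPKM in the duodenum, 0 reads in the cecum (at least 116-fold lower) and 1 read in the colon, a log2 ratio of -8.66 (-13.96 to -6.17).

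Genes with known roles around these 5 were then compared by list, with symbols taken from a reference table that names only part of the transcripts. Of 16 further genes of peroxisomal oxidation 6 could be paired with a transcript and 5 were tested. Of these 5, 4 were called lower in both the cecum and the colon, beside 6.23% and 6.88% of all tested transcripts. Catalase (CAT), which destroys the hydrogen peroxide that peroxisomal oxidation makes, was at 366 RPKM in the duodenum, 74.2 in cecum and 75.4 in colon. HACL1, the lyase of peroxisomal alpha-oxidation, was at 136, 22.7 and 21.8 RPKM, and PHYH, the hydroxylase that opens this pathway, at 161, 79.8 and 78.5. The median log2 ratio of the 5 was -1.13 in cecum and -1.21 in colon.

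The mitochondrial genes beyond CPT1A that could be tested were all under the 2-fold threshold. Of 17 listed genes 7 were paired and tested, and 0 of the 7 were called in either direction in the cecum or the colon, although 7 of 7 had a lower RPKM there. Over all tested transcripts 6.23% and 6.88% were called lower, and 26191 and 29178 of 58311 had a lower RPKM, in the cecum and colon, so a count of 0 called is near the background. HADHA, a subunit of the trifunctional protein that oxidises long chains, was at 154 RPKM in the duodenum, 136 in cecum and 106 in colon. ETFB, a subunit of the flavoprotein that takes electrons from acyl-CoA dehydrogenases, was at 177, 160 and 150 RPKM. The widest differences were those of ETFDH, which passes these electrons to the respiratory chain, at 28.2, 17.1 and 16.4 RPKM, and of the enoyl-CoA isomerase ECI1, at 30.1, 18.5 and 20.2 RPKM. The median log2 ratio was -0.33 in cecum and -0.53 in colon, so CPT1A was higher in the large-intestine libraries while each of the 7 was lower by less than 2-fold.

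The other carnitine shuttle genes that could be tested did not follow CPT1A or CROT past the 2-fold threshold. CPT2, which rebuilds acyl-CoA inside the mitochondrion, was at 28.0 RPKM in the duodenum, 28.1 in cecum and 23.3 in colon, with log2 ratios of 0.01 (-0.06 to 0.07) and -0.27 (-0.33 to -0.20). SLC25A20, the acylcarnitine carrier of the inner membrane, was at 88.0, 76.2 and 70.8 RPKM. CPT1B, the form of CPT1 best known from muscle, was at 2.42, 2.25 and 2.72 RPKM. Of 6 further shuttle genes 3 were paired, and 0 of these 3 were called in either comparison. Beside the 6.23% to 11.5% of all tested transcripts called in each direction, a count of 0 of 3 is near the background. Of the listed fatty acid activation genes 1 of 9 was paired and it was below the filter.

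**Figure D4:**
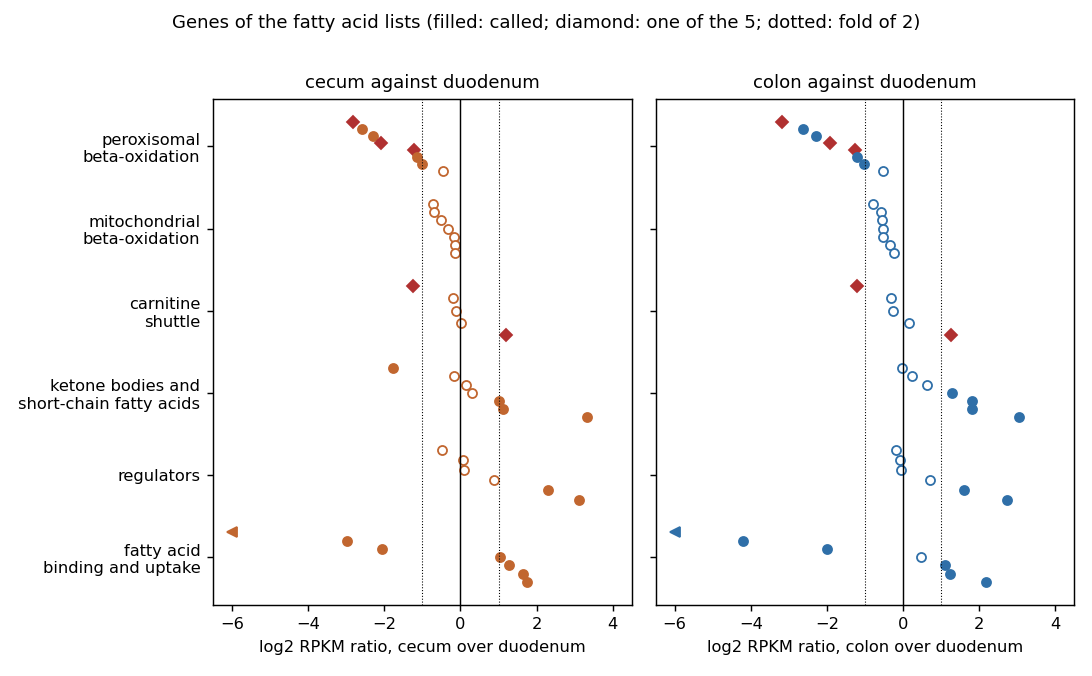
Log2 RPKM ratio to the duodenum of each tested gene of 6 lists, for the cecum (left) and the colon (right). Diamonds are the 5 transcripts described here, filled symbols were called, dotted lines mark a 2-fold difference, and the triangle at the left edge is FABP2, which lies beyond the axis. The peroxisomal genes are left of 0, the 7 mitochondrial genes are all within the dotted lines, and CPT1A is the diamond on the right.

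Among genes of ketone body and short-chain fatty acid use, more were called higher than lower in the large intestine. Of 10 listed genes 7 were paired. Against the duodenum, 3 were called higher and 1 lower in the cecum, and 4 higher and 0 lower in the colon. The shares of all tested transcripts were 11.5% higher and 6.23% lower in the cecum, and 9.35% higher and 6.88% lower in the colon. SLC16A1, a monocarboxylate transporter that carries butyrate and ketone bodies, was at 3.99 RPKM in the duodenum, 40.1 in cecum and 33.0 in colon. ACSS2, which activates acetate, was at 86.6, 187 and 211 RPKM. SLC5A8, a sodium-coupled monocarboxylate transporter, was low everywhere at 0.72, 0.80 and 2.51 RPKM. It passed the filter through the colon alone, so the direction of its call there depends on the filter.

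Among 12 listed regulators 6 were paired. In each large-intestine library 2 of the 6 were called higher, beside 11.5% (cecum) and 9.35% (colon) of all tested transcripts. The 2 called were PPARGC1A, a coactivator of mitochondrial oxidation genes, at 0.56 RPKM in the duodenum, 4.90 in cecum and 3.74 in colon, and PRKAA2, a catalytic subunit of the AMP-activated kinase, at 0.29, 1.44 and 0.89 RPKM. Both were under an RPKM of 1 in the duodenum, and PRKAA2 passed the filter through the cecum alone. At such a duodenum level a gene could be tested only if it was higher elsewhere, so the direction of these calls depends on the filter. PPARG, a nuclear receptor for fatty acids, was at 16.0, 29.5 and 26.2 RPKM and stayed under the 2-fold threshold. HNF4A, a transcription factor of the intestinal epithelium, was at 97.4, 69.8 and 85.7 RPKM. PPARA, the receptor best known for driving peroxisomal and mitochondrial oxidation genes, was not among the genes paired.

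Fatty acid binding proteins differed in both directions. Of 9 listed genes of binding and uptake 7 were paired. Against the duodenum, 4 were called higher and 3 lower in the cecum, and 3 higher and 3 lower in the colon. Beside these counts, 11.5% of all tested transcripts were called higher and 6.23% lower in the cecum, and 9.35% higher and 6.88% lower in the colon. FABP1, the liver form that binds long-chain fatty acids in the absorbing cell, was at 7692 RPKM in the duodenum, 967 in cecum and 414 in colon. FABP2, the intestinal form, was at 1313, 0.50 and 0.43 RPKM. It passed the filter through the duodenum alone, so the direction of its calls depends on the filter. FABP3, the heart form, was at 71.3, 239 and 154 RPKM, and FABP4, the adipocyte form, at 5.70, 17.8 and 25.9 RPKM, both called higher in each large-intestine library. FABP5, the epidermal form, was at 57.0, 117 and 79.4 RPKM and was called in the cecum only.

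The libraries differed in marker genes of several cell types, and in bulk tissue fewer cells of a type and less RNA per cell cannot be told apart. EPCAM was at 582, 550 and 596 RPKM in the duodenum, cecum and colon, and KRT20 at 420, 448 and 257 RPKM. These values show that epithelium was present and not that it was the only tissue. In the cecum the muscle markers DES (1376.5), TAGLN (1229.5) and CNN1 (662.5) and the stromal COL3A1 (563.7) exceeded EPCAM, and ACTA2 (289) and PECAM1 (55.3) did not. In the colon DES (900.9) and TAGLN (837.9) exceeded it, and CNN1 (489.7), COL3A1 (290.4), ACTA2 (158.6) and PECAM1 (32.4) did not. Of the 6 enterocyte markers found, 4 were called lower in both large-intestine libraries, beside 6.23% (cecum) and 6.88% (colon) of all tested transcripts. These 4 were FABP2, given above, the apolipoproteins APOA1 and APOA4 of fat-absorbing cells, at 229, 2.90 and 2.54 RPKM and at 308, 0.20 and 0.27 RPKM, and the lactase LCT, at 2.84, 0.07 and 0.11 RPKM. FABP2, APOA4 and LCT passed the filter through the duodenum alone, so the direction of their calls depends on the filter. The sum over all 6 was 2855, 1002 and 856 RPKM, and EPCAM and KRT20 made up nearly all of it in the cecum and colon. The part of the absorptive cells in the peroxisomal differences was not tested. With EPCAM as the reference, which marks all epithelium and rescales every gene alike, the log2 ratios were -2.01 for ACAA1, -2.74 for HSD17B4, -1.13 for ABCD3 and -1.17 for CROT in the cecum and -1.95, -3.22, -1.30 and -1.25 in the colon.

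Smooth muscle markers, like CPT1A, were higher in both large-intestine libraries than in the duodenum. Between cecum and colon they differed from CPT1A. Their cecum-over-colon log2 ratios ran from 0.44 (CNN1) to 0.87 (ACTA2), and that of CPT1A was -0.06. The 4 of 5 that were found (ACTA2, DES, TAGLN and CNN1) summed to 703 RPKM in the duodenum, 3558 in cecum and 2387 in colon, and none was at 0. Markers of endothelium and stroma, 2 of 4 found, summed to 150, 619 and 323 RPKM, and those of adipocytes, 3 of 5 found, to 9.67, 22.6 and 32.5 RPKM. Most of the adipocyte sum was FABP4, which like PLIN1 had its lowest level in the duodenum. PLIN1 was at 0.92, 2.49 and 3.76 RPKM. CIDEC had its highest level in the duodenum, at 3.06, 2.23 and 2.81 RPKM. The part of these cells in the CPT1A difference was not tested. Plasma cell markers (2 of 4 found) summed to 6812, 3802 and 711 RPKM, and leukocyte markers (3 of 4) to 178, 140 and 136. Of the leukocyte markers, CD68 was highest in the cecum, at 22.4, 40.4 and 28.2 RPKM, and CD79A in the colon, at 43.9, 30.9 and 50.6 RPKM. The goblet cell marker TFF3 was at 3117, 3357 and 3499 RPKM, enteroendocrine markers (2 of 3) summed to 498, 130 and 146, and hepatocyte and pancreas markers (2 of 4) to 2.96, 0.78 and 6.08.

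**Figure D5:**
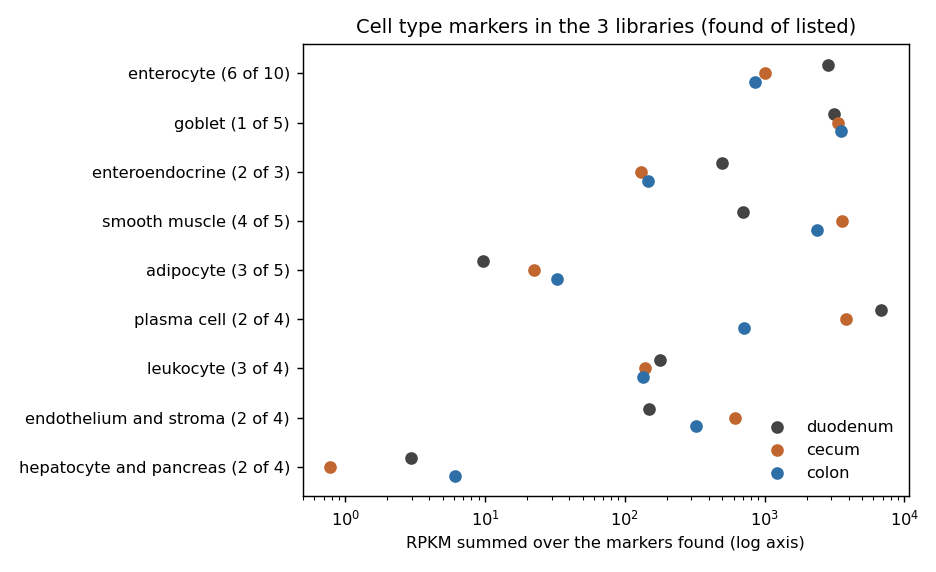
RPKM summed over the markers found of 9 cell types (log axis) in the 3 libraries, with the number found of the number listed beside each name. The duodenum point lies right of the others for enterocyte, enteroendocrine, plasma cell and leukocyte markers and left of them for smooth muscle, adipocyte, and endothelium and stroma.

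The loci whose pair of ratios (cecum and colon to the duodenum) lay nearest to each of the 5 transcripts were listed among 9179 loci with an RPKM of at least 10 in a library. Likeness was the straight-line distance between these log2 pairs, over 3 libraries only. Nearest to ABCD3 was ACAD11, an acyl-CoA dehydrogenase, at 23.2 RPKM in the duodenum, 10.01 in cecum and 9.65 in colon, at a distance of 0.0031. The named loci nearest to ACAA1 were FBP1, the fructose-1,6-bisphosphatase of gluconeogenesis, at 151, 36.3 and 39.4 RPKM, and the acyl-CoA binding protein DBI at 992, 238 and 250 RPKM. For HSD17B4 the third nearest locus was the listed transcript XM_012181578.1 described above, at a distance of 0.155, and the nearest named was PLAC8 at 385, 45.9 and 38.1 RPKM.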

How the data were processed

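RNA of 3 pooled libraries, 1 per region, was sequenced with reads of 100 bp. For each exon of each annotated transcript the authors deposited an estimated count of reads (87.8% to 88.3% of values are not whole), its RPKM and the percent of the exon covered by reads. The methods name Bowtie2 and RSEM with sheep genome v4.0, and the submitters' processing notes name BWA and Bowtie 0.12.2. The files name no build. The 5 transcripts and the gene lists were chosen with earlier results of these data known.

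Exon reads were summed per transcript and set to RPKM with the total exon length and the header's number of reads. For 100% of the exons with reads the deposited RPKM was recovered within 1%. Exons without reads are absent. The read totals were 50832279 (duodenum), 46311533 (cecum) and 53827214 (colon), exon reads summed to 1.35 to 1.39 times the total, and 3 reads, the floor used, are 5.90e-06%, 6.48e-06% and 5.57e-06% of the reads of the duodenum, cecum and colon. Summed reads were rounded and compared with the Audic-Claverie test (two-sided), with Benjamini-Hochberg adjustment over 58311 transcripts and 0 replaced by 0.001 RPKM. On simulated counts with known changes 193 of 194 were recovered in each duodenum comparison, with 0 false calls, which checks the calculation only. Without replicates the intervals and calls cover read sampling only.

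Symbols came from a RefSeq table of assembly ARS-UI_Ramb_v3.0 by accession, version ignored, which paired 8735 of 83089 transcripts, and none of its coordinates was used. Named genes were the 5 transcripts, the listed transcripts in the files, per gene list the 2 with the highest level and the 2 with the largest colon ratio, and the 3 nearest loci of each transcript, of which the text gives a selection and some are not reported here. Genes named outside this rule (ACTA2, APOA1, CIDEC, CPT1B, FABP3, FABP5, KRT20 and LCT) were chosen after their values were seen. Alternatives were pseudocounts, scalings, exon summaries, gene loci, filters, a fold of 4 and edgeR 4.0.16, with EPCAM as the reference added after the data were seen. Python 3.11.15, numpy 2.4.6, pandas 2.3.3, scipy 1.17.1, matplotlib 3.10.9 and R 4.3.3 with limma 3.58.1 were used.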

Additional observations from a re-analysis of the deposited data

How the results depend on the processing

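No paired analysis was possible because each region has 1 library and no replicate could be left out. Over 11 alternatives other than the fold threshold the cecum and colon ratios of the 5 transcripts to the duodenum kept their direction, from -2.15 to -1.87 (log2) for ACAA1, -3.28 to -2.56 for HSD17B4, -1.79 to -1.13 for ABCD3, -1.58 to -1.05 for CROT and 1.07 to 1.33 for CPT1A. With edgeR and an assumed coefficient of variation of 0.4 no call was kept for ACAA1 (-2.09 in the cecum and -1.92 in the colon), HSD17B4 (-2.82 and -3.19), ABCD3 (-1.22 and -1.27), CROT (-1.25 and -1.21) and CPT1A (1.20 and 1.25). A fold of 4 ended the calls of ABCD3, CROT and CPT1A (1.19 in the cecum) in both regions and of ACAA1 in the colon (-1.92), by its construction. The exon whose positions only the listed ABCD3 transcript has gave -1.15 in the cecum, no longer called.

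The cecum-over-colon ratio of ABCD3 turned to -0.020 with median-ratio rescaling, -0.032 when the 10 most abundant loci were left out of the scaling and -0.053 by the highest exon, that of CROT to 0.12 by the median exon and 0.076 with EPCAM as the reference, and that of CPT1A to 0.059 with EPCAM. With median-ratio rescaling 2 CPT1A exons were higher in the cecum than in the colon. A rescaling, also that to EPCAM, shifts every cecum-over-colon log2 ratio by the same amount, so ratios near 0 can change sign. The cause of the changes by exon summary was not tested.

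Of the 13 listed transcripts, those higher in the duodenum numbered 6 (cecum) and 5 (colon) at a fold of 4 and 2 and 2 with edgeR, and those higher in the cecum or colon 0 in each. At an unadjusted p under 0.05 edgeR gave 6 and 6. Over all transcripts, those higher in the cecum than in the duodenum numbered 2549 at an RPKM of at least 10, 1827 as gene loci, 1697 at a fold of 4 and 332 with edgeR, and those higher in the duodenum 1663, 1091, 1524 and 594. In the colon comparison the numbers were 2201, 1497, 1765 and 411 higher in the colon and 1905, 1198, 1546 and 627 higher in the duodenum. Between cecum and colon they were 492, 477, 311 and 26 higher in the cecum and 634, 496, 651 and 70 higher in the colon, and 2613 and 2796 with no filter on low values. Fewer transcripts are tested as loci or at an RPKM of at least 10.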
